A study of Homo sapiens with 14 samples.

Results

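Keratin genes were followed through all 14 RNA-seq libraries of a study of ursolic acid (UA) and digoxin in cancer cell lines. A gene was taken when its symbol consisted of KRT, a number and at most a letter A, B or C, so that keratin pseudogenes and keratin-associated proteins were left out. This gave 54 keratins of 35075 gene symbols, 29 of type I and 25 of type II, and each of them was listed in all 14 libraries. The 10 µM UA libraries came from C4-2B prostate cancer (PCa) cells and HCC70 triple-negative breast cancer (TNBC) cells, the 5 µM UA libraries from HCC70 cells alone, and the 100 nM digoxin libraries from C4-2B cells alone. Cells were harvested at 24 and 48 h, each treated library had a vehicle library of the same line, series and time, and C4-2B cells had separate vehicles for the UA and the digoxin series. Both lines carried the genotype label WT and were grown in RPMI-1640 with fetal bovine serum, and the labels do not say what the vehicle was. Every condition had 1 library of a single cell line, so values have no error and no test was made, and 2-fold is a threshold of size only.

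Keratins are the intermediate filament proteins of epithelial cells. A type I chain always pairs with a type II chain, and epithelia differ in the pairs they make: KRT8 with KRT18 in simple epithelia such as luminal gland cells, KRT5 with KRT14 in basal cells of stratified and glandular epithelia, and KRT6 with KRT16 or KRT17 in keratinocytes during wound repair or hyperproliferation. The other keratins belong mainly to differentiating layers of stratified epithelia and to hair.

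The values were FPKM, a read count scaled by transcript length and by the number of mapped fragments, in which levels of genes of different length can be compared. Ratios are differences of log2(FPKM + 0.1), which understate the change of low genes, and a gene entered a comparison when it was above 1 FPKM in either library. The number of genes above 1 FPKM ran between 11210 and 12163 per library. Both lines were checked against their markers: 12 of 12 luminal prostate markers were above 1 FPKM in every C4-2B library (summed 2572 to 3560 FPKM), against 4 of 12 in HCC70 libraries (90.9 to 108 FPKM), while 12 of 14 basal-like breast markers were above 1 FPKM in every HCC70 library (1276 to 1855 FPKM), against 3 to 6 of 14 in C4-2B libraries (34.8 to 54.3 FPKM). Of 4 endothelial markers none was above 1 FPKM, and of 5 leukocyte markers only CD14 was abundant, in HCC70 libraries alone. In the C4-2B library with UA at 48 h, many genes abundant in HCC70 cells stood slightly above the other C4-2B libraries of the UA series. These genes were chosen after seeing the data. A stricter planned set did not set that library apart from C4-2B vehicle at 48 h. The keratin values that this touches are given with the levels of those genes.

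Of the 54 keratins, 19 were above 1 FPKM in at least 1 library, 9 of type I and 10 of type II. A further 5 reached more than 0.2 FPKM: KRT12 (up to 0.75 FPKM, in HCC70 libraries alone), KRT20 (up to 0.52), KRT86 (up to 0.50), KRT2 (up to 0.33) and KRT73 (up to 0.31, in C4-2B libraries alone). The other 30 stayed at or below 0.18 FPKM, and 10 of them were listed at 0 everywhere. Most silent keratins were those of hair and its root sheath, of which 22 of 25 stayed at or below 0.2 FPKM and only KRT81 passed 1 FPKM. KRT75, a keratin of the hair follicle companion layer, is not counted among these 25. HCC70 libraries had 15 to 18 keratins above 1 FPKM, against 5 to 7 in C4-2B libraries apart from the UA library of 48 h, which had 12.

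**Figure D1:**
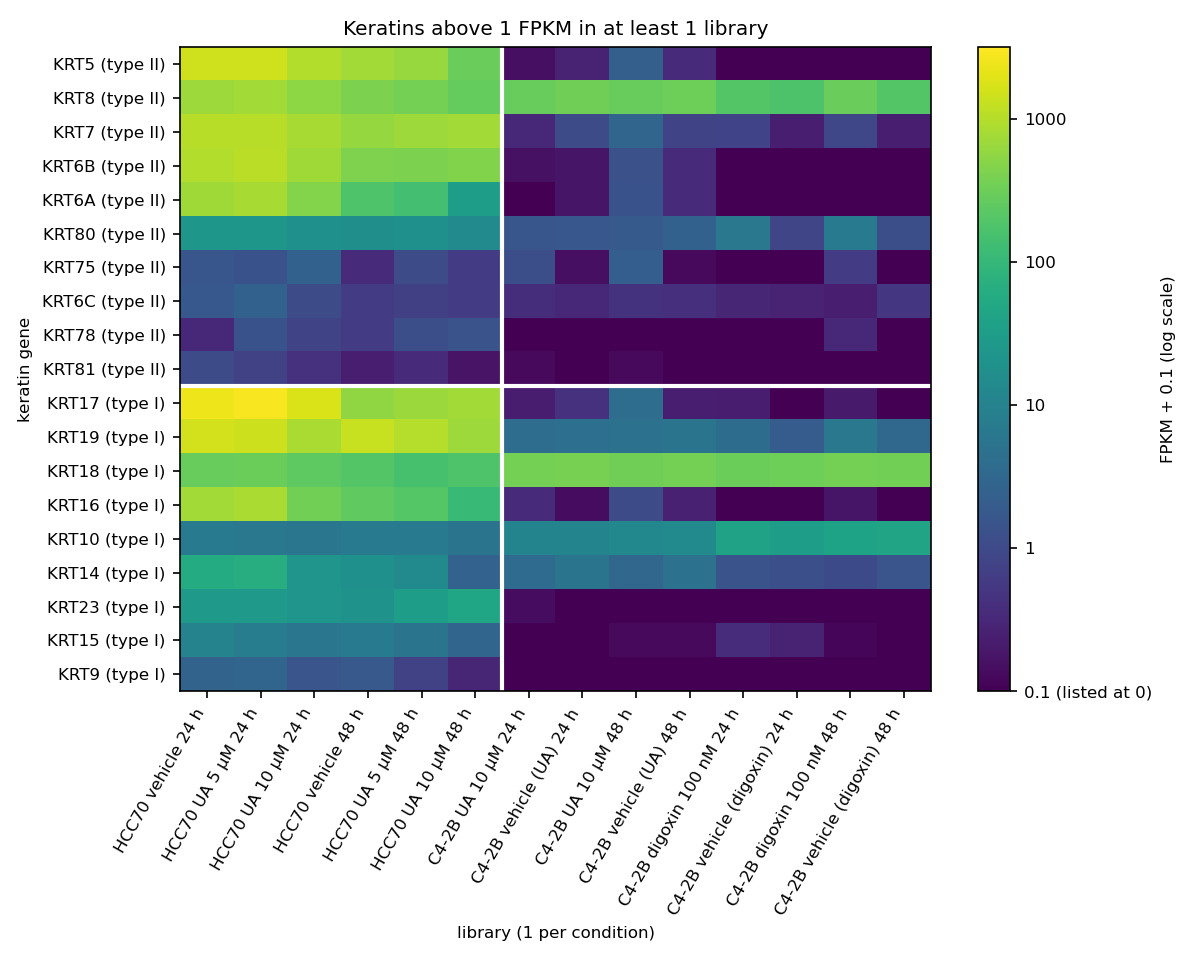
Colour gives FPKM + 0.1 on a log scale for the 19 keratins above 1 FPKM in at least 1 library (rows, type II above type I) in each of the 14 libraries (columns, HCC70 left of C4-2B). KRT8 and KRT18 were high in both lines, while KRT5, KRT6A, KRT6B, KRT7, KRT16, KRT17 and KRT19 were high only in HCC70 libraries.

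The genes lie in 2 clusters. On hg38, 26 of them were within chr12:52168996-52952906, which holds all 25 type II genes and the type I gene KRT18, and the other 28 type I genes were within chr17:40654665-41624842. Neighbours in these clusters can be close copies, which limits how well short reads separate them. KRT6A (chr12:52487176-52493257), KRT6B (chr12:52446651-52452146) and KRT6C (chr12:52468516-52473805), all on the minus strand, are such copies. In GENCODE v44 the coding sequences of KRT6A and KRT6B are 97.5% identical over 1695 bases, with 43 bases different and a longest shared run of 269 bases. Of the 100-base windows of KRT6A, 10.7% occur unchanged in KRT6B. KRT6C was 97.9% identical to KRT6A and 98.5% to KRT6B. Identity was lower between KRT14 and KRT16 (85.2%), KRT14 and KRT17 (78.2%), KRT5 and KRT6A (78.1%) and KRT16 and KRT17 (72.4%). The stretch of coding bases 663 to 722 is shown for the KRT6 genes because no other 60-base stretch within a single exon has more differences between KRT6A and KRT6B. Capitals mark the 9 positions where the 3 genes are not all the same. KRT6A and KRT6B differ at all 9, and KRT6C differs from KRT6A at 5 and from KRT6B at 4.
KRT6A (hg38 chr12:52491555-52491614, minus strand): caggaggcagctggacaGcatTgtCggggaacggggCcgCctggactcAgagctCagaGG
KRT6B (hg38 chr12:52450439-52450498, minus strand): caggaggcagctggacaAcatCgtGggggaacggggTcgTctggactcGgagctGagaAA
KRT6C (hg38 chr12:52472099-52472158, minus strand): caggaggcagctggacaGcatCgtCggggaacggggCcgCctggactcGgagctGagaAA
How the authors' counting placed reads of shared stretches is not given in the sources used here, so the split of FPKM among KRT6A, KRT6B and KRT6C is uncertain, and KRT6C, at 0.50 to 2.40 FPKM in HCC70 libraries, is the most exposed. KRT8 and KRT18 overlap at their ends on opposite strands. KRT86 overlaps KRT81 on the opposite strand and the end of KRT7 on the same strand. Strand-specific counting is not stated, and it would not separate KRT86 from KRT7, so reads of these overlaps cannot be told apart.

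The question of which keratins belong to which line was addressed with the vehicle libraries. HCC70 cells expressed a mixed set of basal, activation and simple keratins at a high level, and C4-2B cells expressed almost only KRT8 and KRT18. Keratins summed to 10099.8 FPKM in HCC70 vehicle and 735 FPKM in C4-2B vehicle of the UA series at 24 h, and to 4806 and 718 FPKM at 48 h. KRT8 and KRT18 made up 9.69% and 12.8% of the HCC70 sums at 24 and 48 h, against 96.7% and 96.0% of the C4-2B sums. Type II and type I keratins were nearly balanced in HCC70 libraries, with a ratio of summed FPKM between 0.94 and 1.10 in all 6. In C4-2B libraries the ratio was 0.77 to 0.86 in the UA series and 0.50 to 0.74 in the digoxin series.

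**Figure D2:**
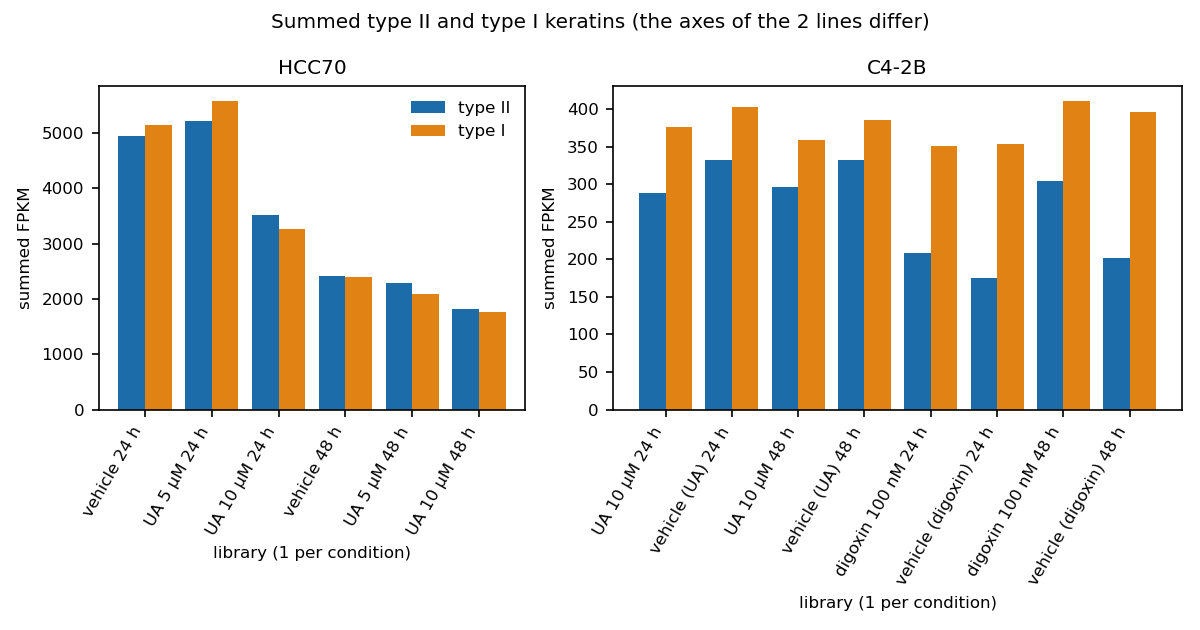
Bars give the summed FPKM of type II (blue) and type I (orange) keratins in each library, with HCC70 on the left and C4-2B on the right on axes of different height. In HCC70 libraries both types were lowest with 10 µM UA at 48 h, at 1811 FPKM (type II) and 1773 FPKM (type I), and in C4-2B libraries type I exceeded type II throughout.

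Basal and activation keratins separated the lines most, here in HCC70 vehicle against C4-2B vehicle of the UA series. KRT5, the type II keratin of basal cells, stood at 1485 and 761 FPKM in HCC70 vehicle at 24 and 48 h, against 0.17 and 0.24 FPKM in C4-2B vehicle of the UA series. KRT17 was the most abundant keratin of HCC70 vehicle at 24 h, with 2420 FPKM there and 573 FPKM at 48 h, against 0.34 and 0.14 FPKM in C4-2B vehicle. KRT16 (754 and 253 FPKM), KRT6A (732 and 184 FPKM) and KRT6B (971 and 424 FPKM) were likewise abundant in HCC70 vehicle, and none of them was above 0.25 FPKM in C4-2B vehicle. KRT14, the usual partner of KRT5, did not keep pace with it: it had 59.6 and 17.7 FPKM in HCC70 vehicle, against 5.27 and 4.66 FPKM in C4-2B vehicle, so that KRT5 exceeded KRT14 by 24.9 times in HCC70 vehicle at 24 h and was below it in C4-2B vehicle. KRT15, another basal type I keratin, had 10.0 and 7.11 FPKM in HCC70 vehicle and at most 0.03 FPKM in C4-2B vehicle.

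Simple keratins differed as well. KRT7, found in many glandular and ductal epithelia, had 1042 and 603 FPKM in HCC70 vehicle, against 0.96 and 0.74 FPKM in C4-2B vehicle. KRT19, the short type I keratin that lacks most of the tail, had 1582 and 1317 FPKM in HCC70 vehicle, against 4.30 and 5.27 FPKM in C4-2B vehicle. KRT80, a type II keratin, had 23.7 and 17.4 FPKM in HCC70 vehicle and 1.60 and 2.37 FPKM in C4-2B vehicle. The pair common to both lines was closer: KRT8 had 689 and 417 FPKM in HCC70 vehicle, against 328.5 and 327.5 FPKM in C4-2B vehicle, and KRT18 had 289 and 200.5 FPKM, against 382 and 362 FPKM. KRT18 was thus the top keratin of every C4-2B library and none of the HCC70 libraries.

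Of KRT9, KRT10, KRT23 and KRT78, only KRT10, a keratin of differentiating epidermis, was above 1 FPKM in C4-2B libraries. It had 6.88 and 6.83 FPKM in HCC70 vehicle, against 10.4 and 14.2 FPKM in C4-2B vehicle, and 33.2 and 42.8 FPKM in C4-2B vehicle of the digoxin series. KRT23 (26.4 and 19.7 FPKM) and KRT9 (2.66 and 1.68 FPKM) were seen in HCC70 vehicle and listed at 0 in C4-2B vehicle. Low keratins of HCC70 vehicle at 24 h were KRT6C at 1.63, KRT75 at 1.48 and KRT81 at 1.01 FPKM.

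Counted over the family, 16 of 18 keratins tested were at least 2-fold higher and 0 lower in HCC70 than in C4-2B vehicle at 24 h, where 20.3% of 13225 genes were that much higher and 31.3% lower. At 48 h, 12 of 15 were higher and 1, KRT10, was lower (log2 ratio −1.04), where 19.2% of 13285 genes were higher and 33.7% lower. Of these, 12 at 24 h and 9 at 48 h had passed the filter through HCC70 vehicle alone, where they had to be higher. Among the 6 keratins above 1 FPKM in both vehicles, 4 were higher and 0 lower at 24 h (median 2.27, against −0.34 over all genes tested), and 3 were higher and 1 lower at 48 h (median 1.13, against −0.42). Centred on the median of all genes, KRT10 was at −0.62 at 48 h, short of 2-fold. The lines differ in tissue and in everything else that sets them apart, which cannot be told apart from 1 library each.

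How far untreated cells drifted was read from vehicle at 48 h over vehicle at 24 h. In HCC70 cells all 18 keratins tested were lower at 48 h, 8 of them at least 2-fold, where 2.01% of 11810 genes were lower by that much and 1.46% higher. Of these, 3 had passed the filter through the 24 h vehicle alone, and among the 15 keratins above 1 FPKM at both times 5 were lower and 0 higher, with a median of −0.73, against −0.11 for all genes tested. The activation keratins all passed 2-fold, namely KRT17 (−2.08), KRT6A (−1.99), KRT16 (−1.57), KRT6C (−1.53) and KRT6B (−1.19), together with KRT75 (−2.22), KRT14 (−1.74) and KRT81 (−2.21). KRT75, KRT6C and KRT81 were the 3 that had passed the filter through the 24 h vehicle alone, where they had to be lower. KRT5 at −0.96, KRT7 at −0.79 and KRT8 at −0.73 stopped short of it, and KRT19 (−0.26) and KRT10 (−0.01) lay nearest to no difference. In bulk RNA, fewer cells that make a keratin and less of its RNA per cell cannot be told apart. C4-2B vehicles showed no such drift: 0 of 6 keratins tested passed 2-fold in the UA series (1.48% of 12286 genes higher and 0.944% lower) and 0 of 6 in the digoxin series (3.76% of 12135 genes higher and 0.676% lower), the largest difference being KRT19 at 0.69 in the digoxin series. No test was behind these counts of 0.

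The effect of UA on HCC70 keratins was asked at 5 and 10 µM. With 5 µM UA the keratins barely differed from vehicle. At 24 h, 1 of 19 tested was at least 2-fold higher and 0 lower, where 1.11% of 11809 genes were higher and 0.644% lower. At 48 h, 1 of 17 was higher and 1 lower, where 1.12% of 11768 genes were higher and 1.23% lower. All 3 were low: KRT78 had 1.28 FPKM with 5 µM UA and 0.23 FPKM in vehicle at 24 h, KRT75 had 1.02 and 0.24 FPKM at 48 h, and KRT9 had 0.67 and 1.68 FPKM at 48 h. With 1 FPKM added in place of 0.1, none of them passed. The median of the keratins was 0.07 and −0.21 at the 2 times.

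With 10 µM UA the basal and part of the activation keratins were lower, more so at 48 h. At 24 h, 3 of 18 keratins tested were at least 2-fold lower and 0 higher, where 1.74% of 11814 genes were lower and 2.05% higher. Of the 18, 17 lay below 0, with a median of −0.54, against −0.07 for all genes. Through vehicle alone 2 had passed the filter, where they had to be lower, and KRT81, one of the 3, was among them. Among the 16 above 1 FPKM in both libraries, 2 were lower and 0 higher, with a median of −0.43. At 48 h, 6 of 16 were lower and 2 higher, or 5 and 1 of the 14 above 1 FPKM in both libraries. At that time 13.3% of 11858 genes were lower and 6.80% higher, and the median was −0.48 for keratins and −0.20 for all genes.

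The basal keratins were lower together. KRT5 had 1485, 1511 and 965 FPKM with vehicle, 5 and 10 µM UA at 24 h, and 761, 648 and 296 FPKM at 48 h. Its log2 ratio of 10 µM to vehicle was −0.62 at 24 h and −1.36 at 48 h. KRT14 had 59.6, 64.1 and 22.5 FPKM at 24 h and 17.7, 14.2 and 2.50 FPKM at 48 h, ratios of −1.40 and −2.78. KRT15 had 10.0, 7.79 and 5.86 FPKM at 24 h and 7.11, 5.23 and 2.78 FPKM at 48 h, ratios of −0.77 and −1.32. At 48 h all 3 members of this group were thus at least 2-fold lower with 10 µM UA. KRT14 spanned the widest range of the 19 keratins in HCC70 cells, with a highest level 25.6 times its lowest, and KRT5 exceeded KRT14 by 118 times in the 10 µM library of 48 h, against 42.9 times in vehicle.

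Promoter windows are shown for KRT5, lower with UA in HCC70 cells, and KRT75, higher with UA in C4-2B cells, from 250 bases before to 50 bases after the RefSeq start (GRCh38.p14). Capitals mark ATAAA, an AT-rich box like the TATA box, and GGGCGG (on the other strand as printed, CCGCCC), a GC box. These letters were chosen after the windows had been read.
KRT5 (GRCh38.p14 chr12:52520345-52520644, minus strand): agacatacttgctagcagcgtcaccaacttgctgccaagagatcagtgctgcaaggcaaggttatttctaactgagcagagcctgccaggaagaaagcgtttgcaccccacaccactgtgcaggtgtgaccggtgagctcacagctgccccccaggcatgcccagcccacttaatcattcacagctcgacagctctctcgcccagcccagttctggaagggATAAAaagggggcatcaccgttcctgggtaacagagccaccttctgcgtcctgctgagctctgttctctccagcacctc
KRT75 (GRCh38.p14 chr12:52434322-52434621, minus strand): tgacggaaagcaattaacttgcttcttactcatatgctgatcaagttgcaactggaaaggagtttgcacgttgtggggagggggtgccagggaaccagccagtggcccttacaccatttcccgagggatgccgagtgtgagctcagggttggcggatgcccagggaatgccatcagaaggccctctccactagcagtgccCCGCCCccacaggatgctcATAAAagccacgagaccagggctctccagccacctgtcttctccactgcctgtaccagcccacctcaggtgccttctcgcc
ATAAA began at −29 in KRT5 and −31 in KRT75 relative to the start, and GGGCGG at −50 in KRT75. RefSeq windows matched 33 of the 54 keratins, but only 5 of the 19 above 1 FPKM (KRT5, KRT8, KRT9, KRT10 and KRT75), so the shares describe mostly keratins that these cells hardly expressed. On either strand, ATAAA was in 31 of these (93.9%), against 35.8% of 27305 promoters, and GGGCGG in 6 (18.2%), against 44.6%. The AP-1 motif TGANTCA was in 0 of 33, against 7.76% of all. The 21 keratins with no window in the table include KRT6A, KRT6B, KRT14, KRT16, KRT17 and KRT19. A match describes letters in this window and says nothing of a factor.

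The activation keratins split. KRT6A had 732, 817 and 457 FPKM with vehicle, 5 and 10 µM UA at 24 h and 184, 145 and 32.3 FPKM at 48 h, a ratio of −2.51 for 10 µM at 48 h. Its near copy KRT6B had 971, 1061 and 735 FPKM at 24 h and 424, 406 and 440.2 FPKM at 48 h, a ratio of 0.05. The ratio of KRT6A to KRT6B was 0.0734 with 10 µM UA at 48 h, against 0.434 in vehicle at 48 h, and 0.621 with 10 µM UA against 0.754 in vehicle at 24 h, so that the copies were furthest apart in that library. The type I members split in the same library. KRT16 had 754, 845 and 345 FPKM at 24 h and 253, 209 and 112 FPKM at 48 h, ratios of −1.13 and −1.17 with 10 µM UA, the second of which was −0.97 when centred on the median of all genes. KRT17 had 2420, 2869 and 1753 FPKM at 24 h and 573, 659 and 738 FPKM at 48 h, ratios of −0.47 and 0.37. KRT75, a low keratin of the hair follicle, had 1.48, 1.27 and 2.35 FPKM at 24 h and 0.24, 1.02 and 0.50 FPKM at 48 h. Its 24 h ratio of 0.63 for 10 µM was the only one of 18 above 0.

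**Figure D3:**
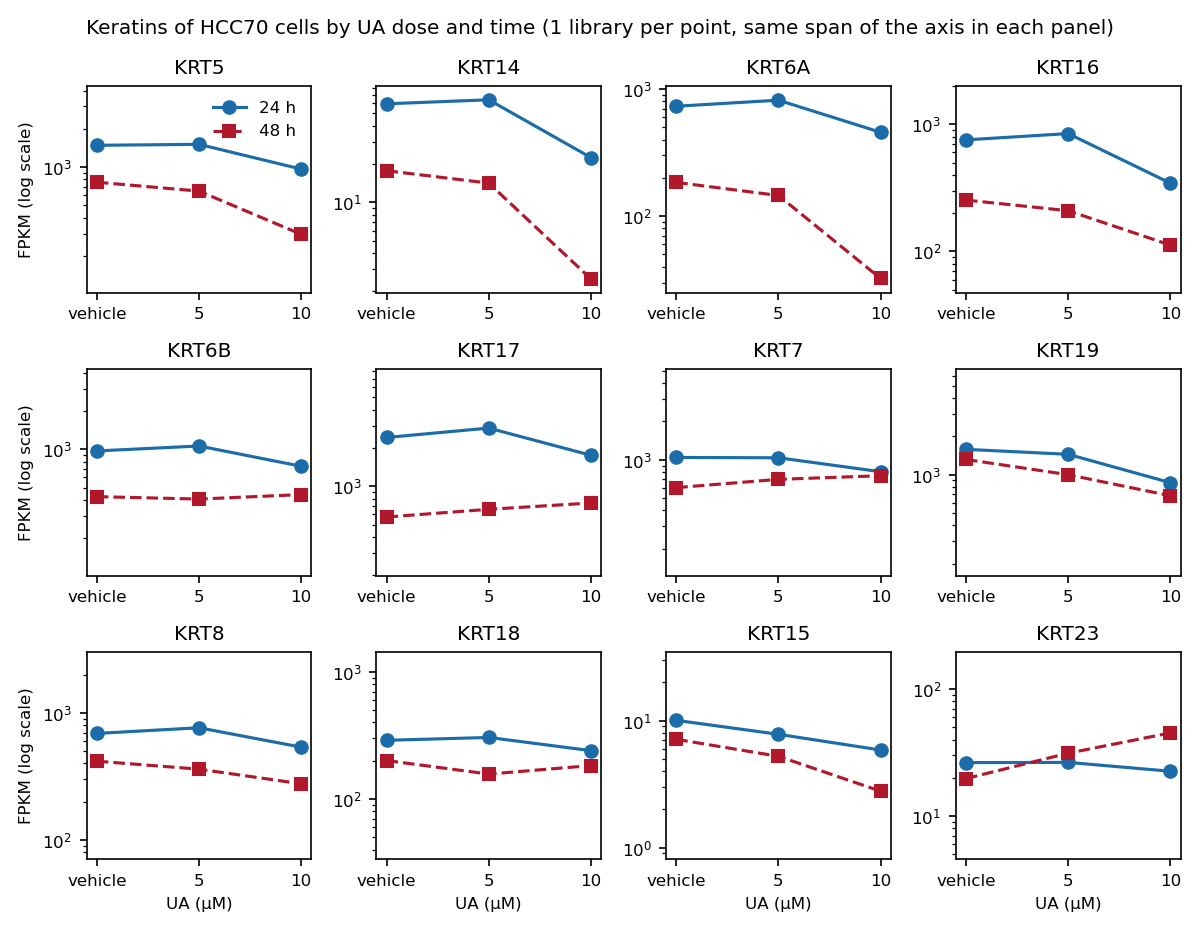
Points give the FPKM (log scale, the same span in each panel) of 12 keratins in HCC70 cells with vehicle, 5 and 10 µM UA at 24 h (blue) and 48 h (red), 1 library per point. At 48 h KRT5, KRT14, KRT6A, KRT16 and KRT15 were lowest with 10 µM UA, while KRT6B, KRT17 and KRT7 lay within 0.37 log2 units of vehicle and KRT23 was higher.

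Of the 5 simple keratins tested in HCC70 cells, 0 passed 2-fold at either time with 10 µM UA, where 1.74% of all genes were lower at 24 h and 13.3% at 48 h. KRT19 came nearest, with 1582, 1446 and 866 FPKM at 24 h and 1317, 999 and 683 FPKM at 48 h, ratios of −0.87 and −0.95, of which that at 24 h was below those of the basal KRT5 and KRT15. KRT8 had 689, 764 and 537 FPKM at 24 h and 417, 360.5 and 277 FPKM at 48 h, and KRT18 had 289, 305 and 239.9 FPKM and 200.5, 157 and 183 FPKM. KRT7 had 1042, 1036 and 805 FPKM at 24 h and 603, 701 and 749 FPKM at 48 h, and was the most abundant keratin of the 10 µM library of 48 h. KRT17 held that place in all 3 libraries of 24 h, and KRT19 in the vehicle and 5 µM libraries of 48 h. KRT80 had 23.7, 24.1 and 18.2 FPKM at 24 h and 17.4, 18.3 and 14.3 FPKM at 48 h.

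Among the remaining keratins, KRT23, KRT78, KRT9 and KRT10 did not all go the same way. KRT23 had 26.4, 26.5 and 22.6 FPKM with vehicle, 5 and 10 µM UA at 24 h and 19.7, 31.3 and 45.2 FPKM at 48 h, so that its 48 h levels ran with dose and opposite to those of the basal keratins (ratio 1.19 for 10 µM). KRT78, much lower, had 0.23, 1.28 and 0.73 FPKM at 24 h and 0.51, 1.11 and 1.29 FPKM at 48 h (1.19). KRT9 had 2.66, 2.89 and 1.42 FPKM at 24 h and 1.68, 0.67 and 0.21 FPKM at 48 h (−2.52). KRT10 had 6.88, 6.32 and 5.76 FPKM and 6.83, 6.70 and 5.24 FPKM, the narrowest range of the 19, 1.31 times from lowest to highest. Of the hair keratins, KRT81 had 1.01, 0.65 and 0.34 FPKM at 24 h (−1.33 for 10 µM) and 0.14, 0.26 and 0.07 FPKM at 48 h.

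Set directly against each other, 10 µM UA was at least 2-fold below 5 µM UA for 3 of 18 keratins tested at 24 h, KRT14 (−1.51), KRT16 (−1.29) and KRT6C (−1.25), and for 3 of 16 at 48 h, KRT14 (−2.46), KRT6A (−2.16) and KRT5 (−1.13). KRT6C had passed the filter through the 5 µM library alone, where it had to be higher. Among keratins above 1 FPKM in both libraries, 2 of 16 were lower at 24 h and 3 of 15 at 48 h. Among all genes, 2.06% of 11860 were lower at 24 h and 9.10% of 11775 at 48 h, and 1.70% and 4.75% were higher, which 0 keratins were. The keratin sum was 10099.8, 10792 and 6784 FPKM with vehicle, 5 and 10 µM UA at 24 h, and 4806, 4366 and 3584 FPKM at 48 h, or 1.14% of all FPKM in vehicle at 24 h and 0.406% with 10 µM UA at 48 h. The sum of vehicle at 48 h was below that of 10 µM UA at 24 h, so time without UA separated the sums more than 10 µM UA did at either time.

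Other genes of the epithelial cytoskeleton were read from lists in the HCC70 comparison of 10 µM UA with vehicle at 48 h, where 6.80% of all genes were higher and 13.3% lower. Of 15 desmosome and linker genes tested of 17, 1 was higher, PLEC (160.03 and 74.8 FPKM, 1.10), which links intermediate filaments to other structures, and 1 was lower, the desmosomal cadherin DSC3 (6.96 and 16.6 FPKM, −1.24), with a median of −0.05. Among the hemidesmosome genes, PLEC again and the laminin chain gene LAMB3 (214 and 85.7 FPKM, 1.32) were higher. Among 5 other intermediate filament genes tested of 16, vimentin (VIM), the filament of mesenchymal cells, was higher (14.9 and 2.94 FPKM, 2.31), and the lamins LMNB1 (3.26 and 14.9 FPKM, −2.16) and LMNB2 (8.95 and 34.4 FPKM, −1.93) were lower. Of 19 keratin regulators tested of 20, 1 was higher, OVOL1 (6.83 and 2.66 FPKM, 1.33), a transcription factor of epithelial differentiation, and 0 were lower. Of 13 keratin partners and modifiers, 1 was lower, the keratin-binding protein gene TCHP (2.44 and 6.91 FPKM, −1.46).

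Digoxin in C4-2B cells moved 1 keratin past 2-fold, and it was the same one at both times. KRT80 had 6.12 FPKM with digoxin and 0.78 FPKM in vehicle at 24 h, and 7.25 and 1.09 FPKM at 48 h, ratios of 2.82 and 2.63, and at 24 h it passed the filter through the digoxin library alone. Both digoxin libraries lay above all 6 other C4-2B libraries, whose highest KRT80 level was 2.37 FPKM. This was 1 of 6 keratins tested and 0 lower at either time, where 2.52% of 11896 genes were higher and 1.87% lower at 24 h, and 2.69% of 12236 higher and 3.42% lower at 48 h. The keratin medians were 0.24 and 0.31, against 0.12 and −0.02 for all genes.

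KRT19 came next and stayed just under 2-fold, with 3.73 FPKM with digoxin and 1.98 FPKM in vehicle at 24 h and 6.23 and 3.26 FPKM at 48 h (0.88 and 0.91). KRT8 had 201 FPKM with digoxin and 173 FPKM in vehicle at 24 h and 294 and 200.2 FPKM at 48 h (0.21 and 0.56), and its partner KRT18 had 306 and 317 FPKM and 361 and 348 FPKM. KRT10 had 39.8 and 33.2 FPKM and 41.2 and 42.8 FPKM, and KRT14 had 1.32 and 1.16 FPKM and 0.94 and 1.43 FPKM. The vehicles of the 2 C4-2B series differed in these genes: KRT8 was 173 and 200.2 FPKM in the digoxin-series vehicles and 328.5 and 327.5 FPKM in the UA-series vehicles, and KRT19 was 1.98 and 3.26 FPKM, against 4.30 and 5.27 FPKM. The digoxin series lists 26237 gene IDs and the UA series 35069, so levels of the 2 series may not be on the same footing. What this does to differences between the series was not tested. Against the UA-series vehicles, the digoxin libraries were still more than 2-fold higher in KRT80 (1.87 and 1.57), and the KRT19 levels of 3.73 and 6.23 FPKM fell on either side of those vehicles. KRT5, KRT6A, KRT6B, KRT9 and KRT23 were listed at 0 in all 4 libraries of the digoxin series. Of 16 keratin regulators tested, the epithelial factor ELF3 was at least 2-fold higher with digoxin at both times (9.15 and 3.37 FPKM at 24 h, 15.3 and 3.82 FPKM at 48 h), and OVOL2 at 24 h alone (10.9 and 5.02 FPKM), and 0 were lower. The UA-series vehicles were nearer the digoxin levels, with 6.66 and 9.66 FPKM of ELF3, and 7.45 FPKM of OVOL2 at 24 h. ELF3 had 10.07 and 13.86 FPKM in the UA libraries of 24 and 48 h.

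**Figure D4:**
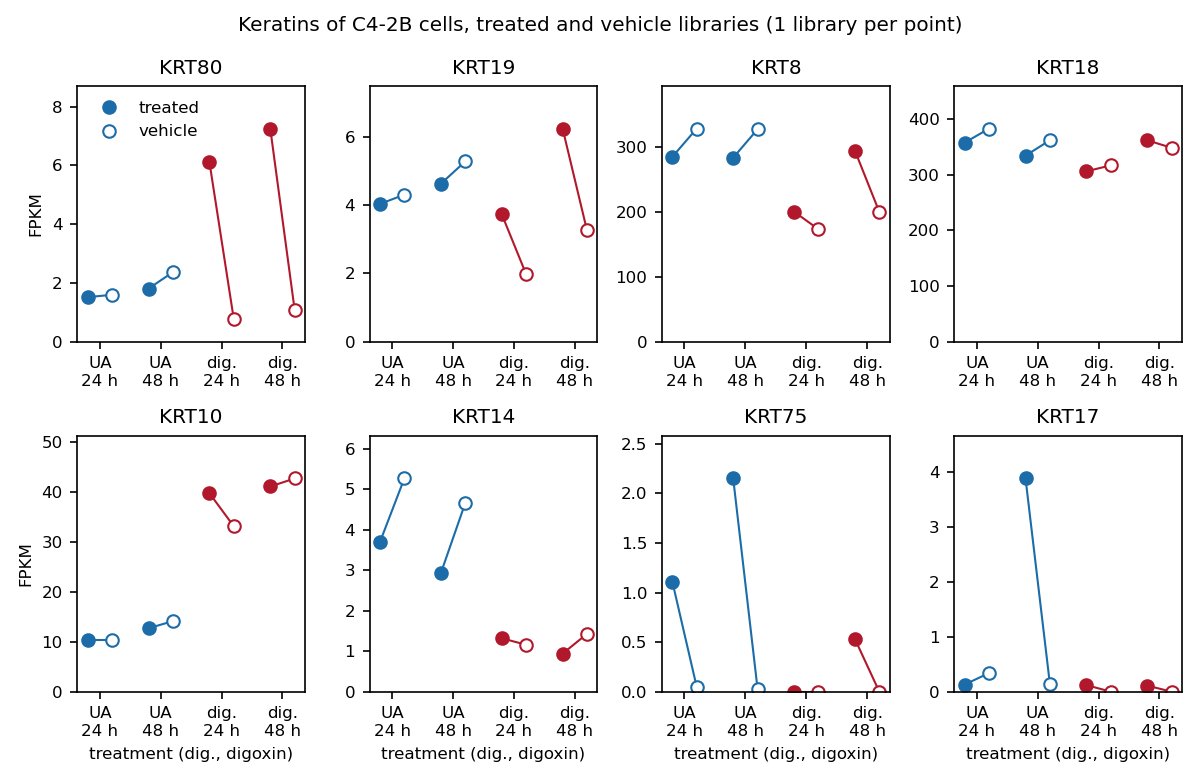
Points give the FPKM of 8 keratins in treated (filled) and vehicle (open) libraries of C4-2B cells, joined within each series and time, UA in blue and digoxin (dig.) in red. KRT80 was above 6 FPKM with digoxin at both times and at most 2.37 FPKM elsewhere, KRT75 was above 1 FPKM only with UA, and KRT17 stood out in the UA library of 48 h alone.

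UA at 10 µM left the abundant keratins of C4-2B cells near vehicle. KRT18 had 357 FPKM with UA and 382 FPKM in vehicle at 24 h and 334 and 362 FPKM at 48 h, and KRT8 had 285 and 328.5 FPKM and 284 and 327.5 FPKM, with ratios between −0.10 and −0.21. KRT14 was below its own vehicle at both times without reaching 2-fold, with 3.70 and 5.27 FPKM and 2.93 and 4.66 FPKM (−0.50 and −0.65). Against the digoxin-series vehicles it was higher instead (1.59 and 0.99). KRT19 (4.03 and 4.30 FPKM, 4.62 and 5.27 FPKM), KRT10 (10.43 and 10.43 FPKM, 12.7 and 14.2 FPKM) and KRT80 (1.52 and 1.60 FPKM, 1.81 and 2.37 FPKM) lay within 0.37 log2 units of vehicle.

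KRT75, a type II keratin of the hair follicle companion layer, was the keratin that passed 2-fold with UA at both times. It had 1.11 FPKM with UA and 0.05 FPKM in vehicle at 24 h and 2.15 and 0.03 FPKM at 48 h, ratios of 3.01 and 4.11. Digoxin libraries had 0 and 0.53 FPKM at 24 and 48 h, and their vehicles were listed at 0. The level of 2.15 FPKM lay within the range of HCC70 libraries, 0.24 to 2.35 FPKM. At 24 h KRT75 was the only one of 7 keratins tested that passed, with 0 lower, where 1.28% of 12219 genes were higher and 1.04% lower, and it had passed the filter through the UA library alone.

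At 48 h, 6 of 12 keratins tested were at least 2-fold higher with UA and 0 lower, where 1.75% of 12416 genes were higher and 1.02% lower. All 6 had passed the filter through the UA library alone, where they had to be higher, and the 6 keratins above 1 FPKM in both libraries lay between −0.11 and −0.65. Besides KRT75 they were KRT17 (3.89 FPKM with UA and 0.14 FPKM in vehicle, 4.06), KRT5 (2.18 and 0.24 FPKM, 2.75), KRT6A (1.26 and 0.24 FPKM, 2.00), KRT6B (1.23 and 0.25 FPKM, 1.93) and KRT7 (2.85 and 0.74 FPKM, 1.81). KRT16 moved likewise below the filter (0.97 and 0.16 FPKM). With UA at 24 h none of KRT5, KRT6A, KRT6B, KRT7, KRT16 and KRT17 was above 0.24 FPKM. With 1 FPKM added in place of 0.1, KRT6A and KRT6B were at 0.87 and 0.84, short of 2-fold.

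Other genes of HCC70 cells were present in the same library, and their levels stand beside those of the keratins. Of 30 genes other than keratins with at least 100 FPKM in both HCC70 vehicles and at most 1 FPKM in the other 3 C4-2B libraries of the UA series, 29 were above the mean of those 3 libraries and 26 above their maximum. S100A6, for example, had 2.30 FPKM in the UA library of 48 h and 0 to 0.20 FPKM in the other 3, SERPINB4 had 0.73 FPKM and 0 to 0.16 FPKM, and KLK10 had 1.16 FPKM and 0.13 to 0.22 FPKM. The excess had a median of 0.124% of the level in HCC70 vehicle at 24 h (quartiles 0.0952 and 0.171%). In the other 3 libraries, described in the same way, 2, 4 and 5 of 22 genes were above the mean of the rest, and the medians were −0.0378, −0.0649 and −0.0269%. For each of these 3, the rest included the UA library of 48 h. This raised the mean of the rest and left out genes above 1 FPKM in that library. These medians are thus pushed down by the way they were made and are no independent background. The gene set was chosen after seeing the data, since a stricter planned one (at least 50 FPKM in HCC70 vehicles, at most 0.05 FPKM in the other C4-2B libraries) held only 4 genes, with a median of 0.0296%, against 0.0579% over 5 genes for C4-2B vehicle at 48 h. With the planned minimum lowered to 20 FPKM it held 30 genes and the median was 0.159%, against 0% over 20 genes for C4-2B vehicle at 48 h.

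**Figure D5:**
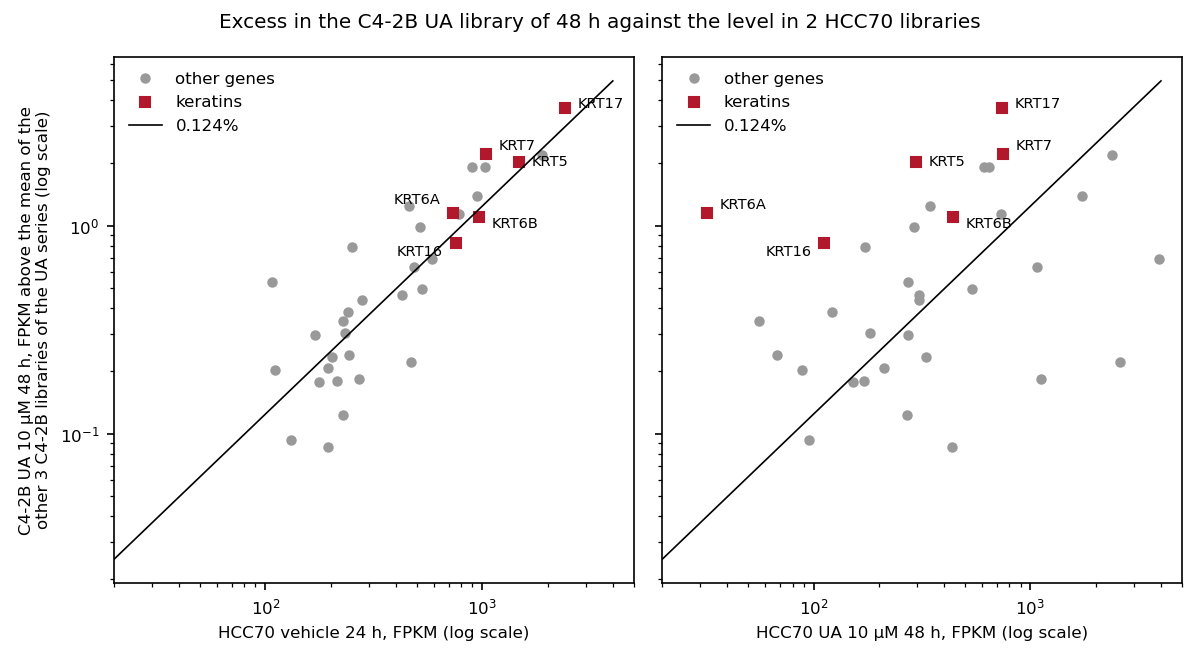
Points give, on log axes, the FPKM by which the C4-2B UA library of 48 h exceeded the mean of the other 3 C4-2B libraries of the UA series, against the level in HCC70 vehicle at 24 h (left) or in HCC70 with 10 µM UA at 48 h (right), for 6 keratins (red) and 29 other genes (grey, MYOF had no excess). The line marks 0.124% of the HCC70 level, and the keratins lay at 0.109 to 0.212% of the library on the left and at 0.250 to 3.57% of that on the right.

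KRT5, KRT6A, KRT6B, KRT7, KRT16 and KRT17 lay in the range of these genes. Their excess was 0.109% of the HCC70 vehicle level at 24 h for KRT16, 0.113% for KRT6B, 0.136% for KRT5, 0.152% for KRT17, 0.158% for KRT6A and 0.212% for KRT7, a spread of 1.94 times over genes whose HCC70 levels ran between 732 and 2420 FPKM. Against the other HCC70 libraries of 24 h the spread was 2.19 times with 5 µM UA and 1.84 times with 10 µM UA. At 48 h it was 2.48 times against vehicle, 2.93 times with 5 µM UA and 14.3 times with 10 µM UA. These 6 keratins were picked because they were higher in the C4-2B UA library of 48 h. When 0.124% of the HCC70 vehicle level was subtracted, 1 keratin remained above the filter and past 2-fold, KRT75 at 4.11. KRT17 was then at 0.884 FPKM, under the filter but with a ratio of 2.04, KRT7 at 1.56 FPKM (ratio 0.98), KRT5 at 0.336 FPKM, KRT6A at 0.351 FPKM, KRT16 at 0.0330 FPKM and KRT6B at 0.0245 FPKM, the last 2 below vehicle (−0.97 and −1.49). KRT19 did not move with these genes: it had 4.62 FPKM in the UA library of 48 h and 4.03 to 5.27 FPKM in the other 3, while 0.124% of its HCC70 level would be 1.97 FPKM. KRT75 would receive 0.00184 FPKM.

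Responses of the 6 keratins that both treatments let be compared in C4-2B cells, KRT8, KRT10, KRT14, KRT18, KRT19 and KRT80, were set side by side. KRT80, KRT19 and KRT8 were above vehicle with digoxin and below it with UA at both times. Against the vehicles of the other series, KRT8 turned to −0.71 and −0.15 with digoxin and to 0.72 and 0.50 with UA, KRT19 turned to −0.20 with digoxin at 24 h and to 0.99 and 0.49 with UA, and KRT80 turned to 0.88 and 0.68 with UA. With 10 µM UA in HCC70 and C4-2B cells, 0 of these 6 moved in opposite directions at both times. Ratios were lower in HCC70 at both times for all but KRT80, which was lower there at 24 h alone. Those of KRT14 were −1.40 and −2.78, against −0.50 and −0.65, and those of KRT19 −0.87 and −0.95, against −0.09 and −0.19. KRT8 had −0.36 and −0.59, against −0.20 and −0.21. The median of all genes tested was −0.07 and −0.20 in HCC70 cells, against −0.01 and 0.01 in C4-2B cells. Against the digoxin-series vehicles, KRT14 with UA in C4-2B cells turned to 1.59 and 0.99. How many of all genes moved in opposite directions was not counted, and these differences between treatments and lines were not tested.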

How the data were processed

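RNA-seq values of 14 libraries, 1 per condition, were analysed. Per the labels and the study's methods, the authors prepared libraries from 1 µg of total RNA, mapped reads on hg38 (BWA, Bowtie) and computed FPKM by Cufflinks (versions not given in the sources used here). The deposited FPKM values are written to 2 decimals, and the digoxin-series headers name no unit. Libraries of the digoxin series list 26237 gene IDs, against 35069 in those of the UA series and HCC70 cells. Read totals were not given and low values did not give whole reads, so depth is unknown and no counting interval is printed. At most 0.390% of values above 1 FPKM were equal in any pair of libraries.

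Computation used Python 3.11.15, numpy 2.4.6, pandas 2.3.3, matplotlib 3.10.9 and Biopython 1.88. The 119 IDs beyond the first of a symbol were added to it, none of them a keratin. A gene entered a comparison above 1 FPKM in either library, ratios are log2(FPKM + 0.1), and genes past 2-fold were counted in 15 comparisons. All keratins above 1 FPKM in a library are named with values, those above 0.2 FPKM by level, and the rest by counts. From the other lists, members past 2-fold with 10 µM UA at 48 h in HCC70 cells are named, apart from an item that is not reported here, and a few from other comparisons were chosen after their values were seen. The members and lists were chosen with earlier results of these data known. Counting was tested on simulated data. Alternatives were other pseudocounts, filters, thresholds, centring, the highest entry of a symbol and other vehicles. Gene positions were taken from GENCODE v44 (hg38), promoters from RefSeq (GRCh38.p14).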

Additional observations from a re-analysis of the deposited data

Results flagged for a closer look

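In C4-2B cells 3 of the 6 keratins that entered all 4 comparisons moved in opposite directions with digoxin and with UA at both times, so that every digoxin library lay above its vehicle and every UA library below. The mean log2 ratio of digoxin minus that of UA was 2.94 for KRT80, 1.04 for KRT19 and 0.589 for KRT8. In HCC70 cells 1 of 15 keratins, KRT80 again, lay above vehicle with 5 µM UA and below it with 10 µM UA at both times, a difference of −0.378 for 10 minus 5 µM. The share of all genes that moved in opposite directions was not counted, so it is unknown whether these numbers are unusual. None of these differences was tested, and each condition has 1 library. The 2 C4-2B treatments have separate vehicles that themselves differ in KRT8 and KRT19. Against the vehicles of the other series, the direction turned for KRT8 with both treatments at both times, for KRT19 with digoxin at 24 h and with UA at both times, and for KRT80 with UA at both times. No group held the 4 samples that a search for outlying samples needs.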

How the results depend on the processing

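No paired analysis was possible because the groups share only 1 replicate number and no result comes from a test, and a fit of dose or treatment plus time over the libraries of a line was not made. Leaving out a library leaves its condition without a value. Among keratins past 2-fold that also entered under the other setting, 466 repeats kept their direction and side of 2-fold, 14 dropped below 2-fold, 11 of them with 1 FPKM added, and 0 reversed. Many of these repeats could not have come out otherwise. A gene past 2-fold is also past 1.5-fold, and a changed filter leaves the ratio of a gene that enters as it was. No keratin symbol had more than 1 ID, so the highest entry of a symbol changed nothing. Keratins that no longer entered are not in the numbers of repeats: after subtraction of the HCC70 level KRT6B was at −1.49, in place of 1.93. Ratios short of 2-fold could turn against the vehicle of the other series. With digoxin at 24 h, KRT8, KRT19 and KRT14 turned to −0.71, −0.20 and −1.92. With UA, KRT14 turned to 1.59 at 24 h and 0.99 at 48 h. With 0.01 FPKM added or centring on the median, no count of keratins past 2-fold moved by over 1.5 times. The highest entry of a symbol could not move these counts.

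Without a filter on low values the counts of keratins past 2-fold became 5 (UA in C4-2B, 24 h), 3 and 6 (digoxin, 24 and 48 h), 2 and 7 (5 µM UA in HCC70, 24 and 48 h), 8 (10 µM, 24 h), 22 (HCC70 over C4-2B, 48 h), 6 (10 over 5 µM, 48 h) and 1 for each C4-2B vehicle of 48 over 24 h. A filter above 5 FPKM left 0 for UA in C4-2B and for 5 µM UA in HCC70 at both times, and 5 for HCC70 vehicle of 48 over 24 h. With 1 FPKM added, 5 µM UA had 0 at both times. At 1.5-fold the counts were 2 for digoxin at each time, 4 for 5 µM UA at 48 h, 10 for 10 µM UA at 24 h, 10 and 6 for 10 over 5 µM at 24 and 48 h, and 1 for C4-2B vehicle of 48 over 24 h in the digoxin series. Against the vehicle of the other series, UA in C4-2B at 24 h and digoxin at 24 and 48 h had 3 each, and the keratin median of digoxin at 24 h was −0.26 in place of 0.24.

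For UA in C4-2B at 48 h, 1 keratin passed after subtraction of 0.124% of HCC70 vehicle, a setting chosen after seeing the data. The genes abundant in HCC70 and near 0 in C4-2B gave, by the planned rule, medians of 0% of the HCC70 level in C4-2B vehicle and UA at 24 h, 0.0579% in vehicle and 0.0296% in UA at 48 h, from 3 to 5 genes each. As an excess over 22 to 30 genes, also chosen after seeing the data, the medians were −0.0378 and −0.0649% at 24 h, −0.0269% in vehicle and 0.124% in UA at 48 h. The medians below 0 had the UA library of 48 h in the mean they were set against, which lowers them. By the planned rule with a minimum of 20 FPKM, medians were 0.159% in UA and 0% in vehicle at 48 h. With 0 FPKM required elsewhere they were 0% in UA (1 gene) and 0.0995% in vehicle (3 genes). Levels near 1 FPKM, such as those of KRT6C, KRT9, KRT75, KRT78 and KRT81, carry an unknown counting error, since the depth is unknown.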

Other observations

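Keratin pseudogenes, which were left out above, were low throughout. The UA-series and HCC70 files list 109 of them and the digoxin-series files 6. Their sum was 7.22 to 10.9 FPKM in HCC70 libraries and 11.9 to 14.2 FPKM in the C4-2B libraries of the UA series, or 0.101 to 0.217% and 1.62 to 2.16% of the keratin sum. KRT8P12 was the highest in these 10 libraries, with 4.83 to 7.11 FPKM in HCC70 libraries and 7.13 to 9.46 FPKM in C4-2B libraries. In C4-2B cells it was higher with UA than in vehicle at both times, 8.42 and 7.13 FPKM at 24 h and 9.46 and 7.40 FPKM at 48 h, where KRT8 itself was lower.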
